A study of Mus musculus with 15 samples.

Results

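The cortical hem and roof signals examined here were 10 genes of the 23132 analysed, chosen by name as a group of known midline signals: the Wnt ligands *Wnt2b*, *Wnt3a*, *Wnt5a* and *Wnt8b*, the R-spondins *Rspo1*, *Rspo2* and *Rspo3*, the bone morphogenetic proteins *Bmp4* and *Bmp7*, and the transcription factor *Lmx1a*. All 10 had reads in every group. RNA was sequenced from foetal mouse cortex with and without *Phf6*, an X-linked gene encoding a chromatin-associated protein that is mutated in Börjeson–Forssman–Lehmann syndrome. Dissected E15.5 cortices came from 3 *Phf6+/Y* and 5 *Phf6-/Y* C57BL/6 foetuses of 3 litters. Cortical neurons were dissociated from E16.5 C57BL/6 cortices and plated, and comprised 4 *Phf6lox/Y;Nes-cre* cultures, with 3 *Phf6+/Y;Nes-cre* cultures as controls, from 4 litters numbered 4 to 7. The nestin-driven Cre of *Nes-cre* (NesCre T/+ in the labels) is active in the neural lineage from progenitors onward, so that the floxed *Phf6* allele is deleted there and left in cells of other origin. Control cultures carried the transgene as well, and all samples carried a single X chromosome (/Y). Litter 7 gave 1 *Phf6lox/Y;Nes-cre* culture and no control.

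The cortical hem is a strip of neuroepithelium at the medial edge of the developing cortex, next to the roof plate and the choroid plexus. It secretes Wnt and BMP proteins that pattern the adjoining hippocampal field, and it gives rise to many of the Cajal-Retzius neurons, the Reelin-producing cells of the marginal zone. Wnt ligands act through Frizzled receptors and stabilise β-catenin, R-spondins raise this signal by binding Lgr receptors and removing *Znrf3* and *Rnf43*, BMPs signal through SMAD proteins, and *Lmx1a* specifies roof plate and hem. Several members are not restricted to the hem: BMPs are also made by choroid plexus and meninges, and *Wnt5a* and *Rspo3* are also made outside the midline. A cortex cut with more or less medial tissue can therefore carry more or less RNA of these genes. In bulk RNA, fewer cells of a type and less RNA per cell cannot be told apart.

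Libraries held 16858007 to 31157700 counted reads (median 24218468). Levels are given as CPM, read counts scaled to the library total with TMM factors over all 15 libraries, and levels of different genes are compared as RPKM, which is CPM per kilobase of exon. *Phf6* lay at 149 to 191 CPM in control and 42.4 to 55.2 CPM in *Phf6-/Y* cortices, and at 228 to 259 CPM in control and 59.9 to 85.8 CPM in *Phf6lox/Y;Nes-cre* neurons, so that no library went against its label. The cortical neuron markers *Tubb3*, *Neurod2*, *Neurod6*, *Tbr1* and *Bcl11b* summed to between 2560 and 3800 CPM in cortices and between 4270 and 4770 CPM in neurons. The *Phf6-/Y* replicate 1 cortex stood apart, with the lowest cortical neuron sum and a sum of 159 CPM for 6 thalamic and prethalamic markers, against 26.3 to 39.4 CPM in the other 7 cortices. Control replicate 3 and *Phf6-/Y* replicate 4, both of litter 1, held 295 and 567 CPM of 9 meningeal markers, against 17.9 to 121 CPM in the others.

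**Figure D1:**
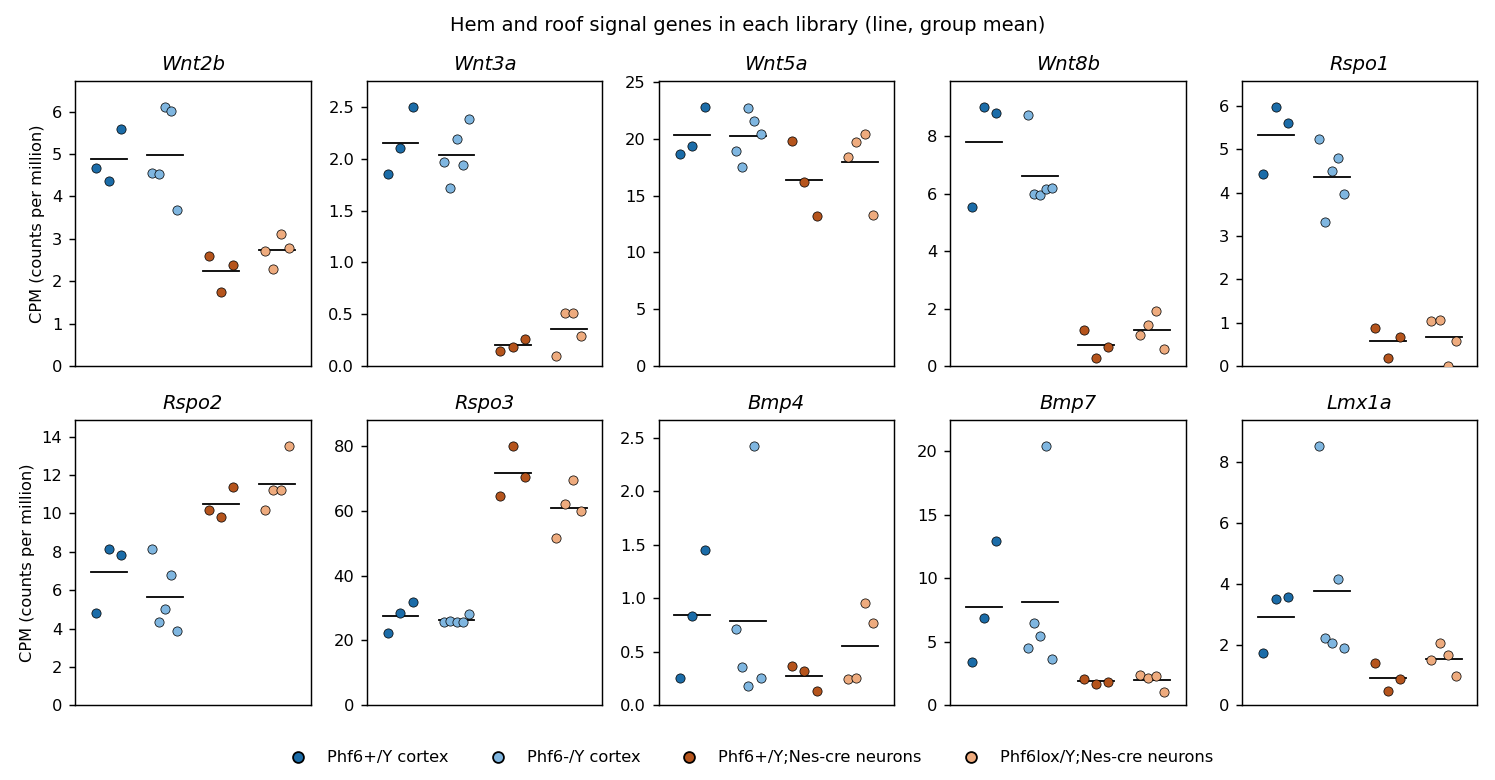
Level of each of the 10 genes in each library, in CPM on linear axes that start at 0; points are libraries in order of replicate number, colours are the 4 groups and lines are group means. Bmp4, Bmp7 and Lmx1a are each highest in 1 Phf6-/Y cortex. For Bmp4 and Bmp7 control replicate 3 is next, at 1.45 and 12.9 CPM, also above the other cortices. Wnt3a, Wnt8b and Rspo1 lie near the axis in all 7 neuron cultures.

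Per length, *Rspo3* was the most abundant member in the control cortex, at 11.4 ± 2.01 RPKM (SD, n = 3). *Wnt5a* followed at 4.64 ± 0.499, *Bmp7* at 3.93 ± 2.43, *Rspo1* at 2.91 ± 0.437, *Wnt8b* at 2.31 ± 0.581 and *Rspo2* at 2.07 ± 0.556 RPKM, and neighbours from *Wnt5a* to *Rspo2* in this order differed by less than their summed SD. *Wnt2b* was at 1.36 ± 0.182, *Lmx1a* at 0.874 ± 0.311, *Wnt3a* at 0.779 ± 0.119 and *Bmp4* at 0.423 ± 0.301 RPKM. In control neurons *Rspo3* was again the highest, at 29.9 ± 3.25 RPKM (SD, n = 3), and *Wnt5a* (3.75 ± 0.752) and *Rspo2* (3.13 ± 0.241) were next, with overlapping spreads. The other 7 members were below 1 RPKM there, from *Bmp7* at 0.955 ± 0.0988 down to *Wnt3a* at 0.0719 ± 0.0215 RPKM.

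Whether loss of *Phf6* alters these signals in the E15.5 cortex was examined first. None of the 10 members passed the test, against 0.319% of 14750 tested genes called higher and 0.0678% called lower in *Phf6-/Y* cortices (Benjamini-Hochberg FDR below 0.05 in edgeR's quasi-likelihood test, litter being fitted). An unadjusted p below 0.05 was reached by 1542 of all genes and by 0 members, and DESeq2 and limma-trend likewise called 0 members. The median log2 fold change of all tested genes was 0.00.

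*Wnt8b* (Entrez Gene 22423, chr19:44493472-44514273 in GRCm38), a ligand whose cortical expression is centred on the hem, was at 5.54, 9.03 and 8.83 CPM in control replicates 1 to 3 and at 8.74, 5.99, 5.96, 6.16 and 6.19 CPM in *Phf6-/Y* replicates 1 to 5. The groups overlapped, since 1 control was the lowest cortex of all and 1 *Phf6-/Y* cortex was close to the other controls. For *Wnt8b* the log2 fold change was -0.24 (95% interval -0.69 to 0.20, FDR = 0.737, edgeR). *Wnt3a* (Entrez Gene 22416, chr11:59248036-59290751), a canonical ligand of the hem needed for hippocampal growth, was at 1.85, 2.1 and 2.5 CPM in controls and at 1.97, 1.72, 2.19, 1.94 and 2.38 CPM in *Phf6-/Y* cortices, a log2 fold change of -0.09 (-0.68 to 0.49). The 5 *Phf6-/Y* values lay among or just under the 3 control values.

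*Wnt2b*, a ligand of the hem and roof, was at 4.36 to 5.6 CPM in control and 3.68 to 6.11 CPM in *Phf6-/Y* cortices, with a log2 fold change of 0.01 (95% interval -0.47 to 0.48). *Wnt5a*, which mostly acts through β-catenin-independent signalling, was at 18.7 to 22.8 CPM in control and 17.5 to 22.7 CPM in *Phf6-/Y* cortices, nearly the same range. The log2 fold change of *Wnt5a* was -0.03, with an interval of -0.26 to 0.21, so that changes smaller than these bounds were not resolved.

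The R-spondins overlapped between genotypes in the same way. *Rspo3* (Entrez Gene 72780, chr10:29453106-29535867) was at 22.2, 28.4 and 31.7 CPM in controls and at 25.8, 26.1, 25.7, 25.7 and 28.0 CPM in *Phf6-/Y* cortices, all of the latter inside the control range, with a log2 fold change of -0.09 (95% interval -0.30 to 0.13). *Rspo1* and *Rspo2* had log2 fold changes of -0.29 (-0.75 to 0.16) and -0.31 (-0.92 to 0.31). Within litters these 2 genes were lower in *Phf6-/Y* cortices in litters 1 and 2 and higher in litter 3, with log2 ratios of -0.35, -0.61 and 0.24 for *Rspo1* and -0.56, -0.80 and 0.77 for *Rspo2*. Litter 3 holds the *Phf6-/Y* replicate 1 cortex with the high thalamic markers.

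The widest intervals belonged to *Bmp4* (-1.87 to 1.35), *Bmp7* (-1.52 to 1.49) and *Lmx1a* (-1.09 to 1.52), about log2 fold changes of -0.26, -0.01 and 0.21. For these 3 genes a change of 2-fold in either direction was not excluded at this depth and spread. Their estimates took either sign according to the library left out, from -0.99 to 0.46 for *Bmp4*, from -0.51 to 0.24 for *Bmp7* and from -0.47 to 0.80 for *Lmx1a*, with no call in any of the 8 fits for each gene. With control replicate 3 and *Phf6-/Y* replicates 1 and 4 all left out, 0 members were called as well, although the number of all genes called was 460 in place of 57.

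**Figure D2:**
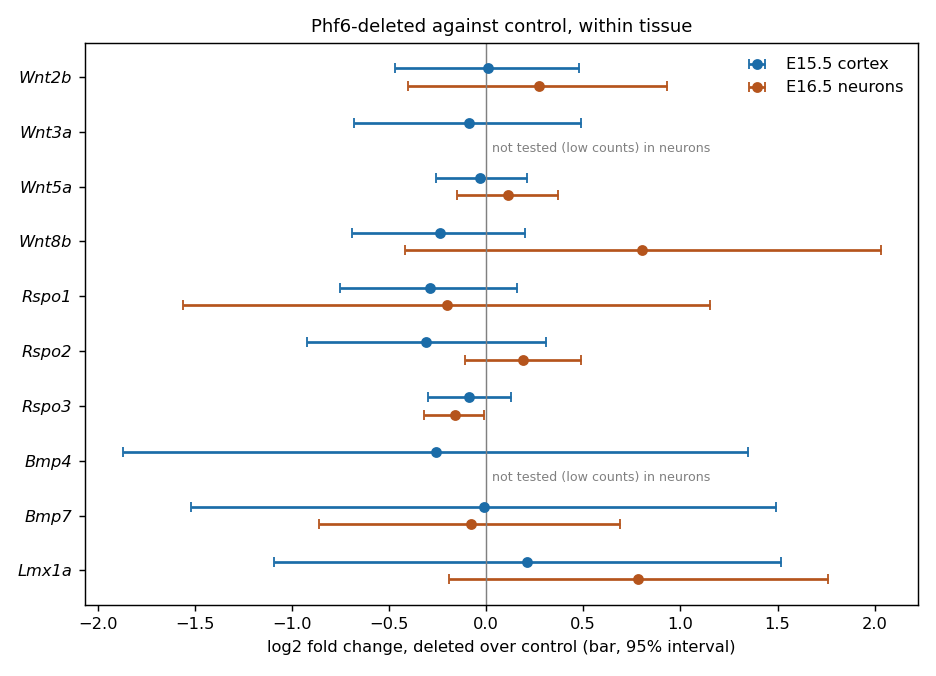
Fitted log2 fold change of each gene in Phf6-deleted against control samples (x axis, points) with its 95% interval (bars), in E15.5 cortex (blue) and E16.5 neurons (brown). Intervals are widest for Bmp4 and Bmp7 in cortex and for Wnt8b and Rspo1 in neurons, and the neuron interval of Rspo3, from -0.32 to -0.01, is the only one that leaves out 0.

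The rest of the pathways gave few calls. None of the 8 other Wnt ligands tested, the 22 Wnt secretion and receptor genes, the 9 secreted Wnt inhibitors or the 10 Wnt targets and effectors was called between *Phf6-/Y* and control cortices, with median log2 fold changes of -0.03, 0.02, 0.08 and -0.01. The 5 other BMP ligands, 6 BMP receptors, 8 BMP inhibitors and 9 BMP targets and effectors tested also gave 0 calls. Of 10 tested factors of the hem, dorsal midline and medial pallium, 1 rose: *Lhx5*, a LIM-homeodomain factor of the hem and Cajal-Retzius cells, with a log2 fold change of 0.77 (SE 0.14, FDR = 0.0368, edgeR). *Lhx5* was at 13.9, 7.41 and 6.33 CPM in controls and at 27.2, 13.7, 12.5, 10.6 and 8.07 CPM in *Phf6-/Y* cortices, which overlapped because control replicate 1 was above 4 of the 5. The highest value was again that of *Phf6-/Y* replicate 1.

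Among 7 markers of Cajal-Retzius cells, many of which come from the hem, 1 rose in each genotype comparison. The summed level of the list (*Reln*, *Trp73*, *Lhx1*, *Calb2*, *Ebf3*, *Cacna2d2* and *Nhlh2*) was 375 to 413 CPM in control and 465 to 535 CPM in *Phf6-/Y* cortices, and 154 to 190 CPM in control and 224 to 421 CPM in *Phf6lox/Y;Nes-cre* neurons. The genotypes did not overlap in either tissue, but this was not particular to this list. In cortex the secreted Wnt inhibitors separated too, at 295 to 303 CPM in control and 253 to 284 CPM in *Phf6-/Y*. In neurons the choroid plexus, thalamic and prethalamic, endothelial and mural, and other BMP ligand sums were likewise higher without overlap in *Phf6lox/Y;Nes-cre* cultures. The share of all genes that separate in this way was not counted. The 421 CPM were those of *Phf6lox/Y;Nes-cre* replicate 1, from litter 7 without a control. Replicates 2, 3 and 4 were at 247, 224 and 297 CPM. All 7 genes had a positive log2 fold change in both comparisons, and the 1 called in each was *Calb2*, encoding the calcium-binding protein calretinin, in cortex (0.56, SE 0.11, FDR = 0.0393, edgeR) and *Reln* in neurons (0.81, SE 0.06, FDR = 1.4e-05, edgeR). All 9 meningeal genes tested in cortex had a positive log2 fold change as well, with 0 called. The part of Cajal-Retzius cells in the members' values was not tested.

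In E16.5 neurons the same question was asked within litters, where 8 members could be tested, *Wnt3a* and *Bmp4* falling to the filter on low counts. None was called, against 0.194% of 13909 tested genes called higher and 0.0791% called lower in *Phf6lox/Y;Nes-cre* neurons. An unadjusted p below 0.05 was reached by 1437 of all genes and by *Rspo3* alone among the members, and DESeq2 and limma-trend called 0 members. *Rspo3* was at 64.4, 79.9 and 70.5 CPM in control and at 51.5, 62.0, 69.4 and 59.9 CPM in *Phf6lox/Y;Nes-cre* neurons. In each of the 3 litters with both genotypes the control was higher, with log2 ratios of -0.05, -0.20 and -0.23, while the groups overlapped over litters. The fitted log2 fold change of *Rspo3* was -0.16 (SE 0.07, 95% interval -0.32 to -0.01, FDR = 0.452, edgeR), which fails the correction.

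*Rspo2* went the other way within the same litters, at 10.2, 9.83 and 11.4 CPM in control and 10.2, 11.2, 11.2 and 13.5 CPM in *Phf6lox/Y;Nes-cre* neurons, a log2 fold change of 0.19 (95% interval -0.11 to 0.49, FDR = 0.705). *Wnt5a* was at 13.2 to 19.8 CPM in control and 13.3 to 20.4 CPM in *Phf6lox/Y;Nes-cre* neurons, and *Wnt2b* at 1.75 to 2.6 and 2.28 to 3.12 CPM. The log2 fold changes were 0.11 (-0.15 to 0.37) and 0.27 (-0.40 to 0.93). The genotypes overlapped widely for *Wnt5a* and over a narrower part of the range for *Wnt2b*.

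*Wnt8b* and *Lmx1a* had the largest fitted differences between the neuron genotypes, 0.80 (95% interval -0.42 to 2.03) and 0.78 (-0.19 to 1.76), with FDR = 0.691 and 0.597 (edgeR). They rested on few reads: 34, 6 and 15 reads of *Wnt8b* in control and 22, 39, 30 and 12 in *Phf6lox/Y;Nes-cre* cultures, and 10 to 38 and 20 to 56 reads of *Lmx1a*. The lowest culture for both was control replicate 2, whose litter mate, *Phf6lox/Y;Nes-cre* replicate 3, had the highest *Wnt8b* level of the 7 at 1.91 CPM. Without control replicate 2 the log2 fold change of *Wnt8b* was 0.04 and that of *Lmx1a* 0.38, the same as without its litter mate, and that of *Wnt8b* was 1.26 without control replicate 3, with no call in any of these fits. *Phf6lox/Y;Nes-cre* replicate 3 also had 0 reads of *Rspo1*, which allows up to 0.191 CPM (3 counts), and the highest choroid plexus sum among the neurons at 32.6 CPM. *Wnt3a* had 2 to 14 reads and *Bmp4* 3 to 16 reads in the neuron cultures. Without the filter their log2 fold changes were 1.11 and 1.14 (FDR = 0.943 and 0.904, edgeR), and that of *Bmp4* was 1.96 without control replicate 1 (FDR = 0.509) and 0.56 without control replicate 3 (FDR = 0.882). Several summed lists also differed without overlap between the neuron genotypes. Choroid plexus markers were at 6.82 to 9.27 against 11.7 to 32.6 CPM, and thalamic and prethalamic markers at 8.69 to 10.7 against 15.1 to 17.9 CPM. Endothelial and mural markers were at 6.46 to 7.63 against 8.41 to 11.1 CPM, and other BMP ligands at 5.13 to 7.19 against 7.25 to 9.13 CPM. The Cajal-Retzius sums separated as well, as given above. The separation was thus not particular to choroid plexus and thalamus. The part of any of these lists in the *Wnt8b* and *Lmx1a* values was not tested.

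A difference between the tissues in the genotype effect was tested as an interaction over all 15 libraries. None of the 10 members was called, against 0.0133% of 15001 tested genes, and 779 of all genes and 0 members had an unadjusted p below 0.05. DESeq2 and limma-trend gave 0 members too. The interaction was 1.22 on the log2 scale for *Wnt3a* (95% interval -0.11 to 2.54, FDR = 0.954, edgeR) and 1.02 for *Wnt8b* (-0.12 to 2.16, FDR = 0.954), the other 8 members having unadjusted p-values from 0.188 to 0.929. The genotype comparisons of cortex and neurons share no samples.

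The second question was how these genes varied over the cortices themselves, given that their RNA can follow the cut of the dissection. The ratio of the highest to the lowest of the 8 cortices was 13.2 for *Bmp4*, 5.92 for *Bmp7* and 4.96 for *Lmx1a*, larger than for 97.7%, 95.2% and 94.0% of the 14750 tested genes. The median ratio of those genes was 1.43. The other 7 members ranged from 1.3 (*Wnt5a*) to 2.12 (*Rspo2*). *Bmp4* rests on 5 to 71 reads per cortex, so that part of its ratio is counting error, whereas *Bmp7* had 87 to 599 and *Lmx1a* 45 to 203 reads.

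*Bmp7* (Entrez Gene 12162, chr2:172868012-172940321), a BMP ligand of choroid plexus, meninges and dorsal midline, was at 20.4 CPM in *Phf6-/Y* replicate 4 and 12.9 CPM in control replicate 3, against 3.44 to 6.85 CPM in the other 6 cortices. *Bmp4*, which induces choroid plexus from the roof, was highest in the same pair, at 2.42 and 1.45 CPM, against 0.183 to 0.832 CPM. These foetuses were litter mates of opposite genotype, and the other *Phf6-/Y* foetus of litter 1, replicate 5, was among the low cortices for both genes, at 3.64 and 0.251 CPM. The pair also had the highest meningeal sums, of 295 and 567 CPM, and choroid plexus sums of 391 and 392 CPM. Control replicate 2, with a choroid plexus sum of 517 but a meningeal sum of 32.1 CPM, had 6.85 CPM of *Bmp7* and 0.832 CPM of *Bmp4*, below only that pair for both genes.

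Over the 8 cortices, *Bmp4* and *Bmp7* were correlated with Pearson's r = 0.90 and Spearman's rho = 0.81 on the log2 scale. The 2 cortices farthest from the median of *Bmp4* were control replicate 3 and *Phf6-/Y* replicate 4. Without them r was 0.46, so that the relation rests mostly on those. *Bmp4* followed the choroid plexus sum with r = 0.88 (rho = 0.83, 0.98 without the farthest 2) and the meningeal sum with r = 0.87 (rho = 0.83, then 0.51). *Bmp7* followed them with r = 0.77 (rho = 0.83, then 0.83) and r = 0.87 (rho = 0.79, then 0.45). For each list the farthest 2 were taken by its own sum. They were control replicate 2 and *Phf6-/Y* replicate 4 for choroid plexus, and control replicate 3 and *Phf6-/Y* replicate 4 for meninges. Control replicate 3 thus stayed in the choroid plexus values, which do not show the relation without the litter 1 pair. These correlations are descriptions over 8 libraries that share litters and dissection, and the part of choroid plexus and meninges in the BMP values was not tested. Transthyretin, *Ttr*, the leading transcript of choroid plexus, was at 0.501, 433 and 314 CPM in control replicates 1 to 3 and at 63.1, 15.2, 1.46, 298 and 1.3 CPM in *Phf6-/Y* replicates 1 to 5.

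**Figure D3:**
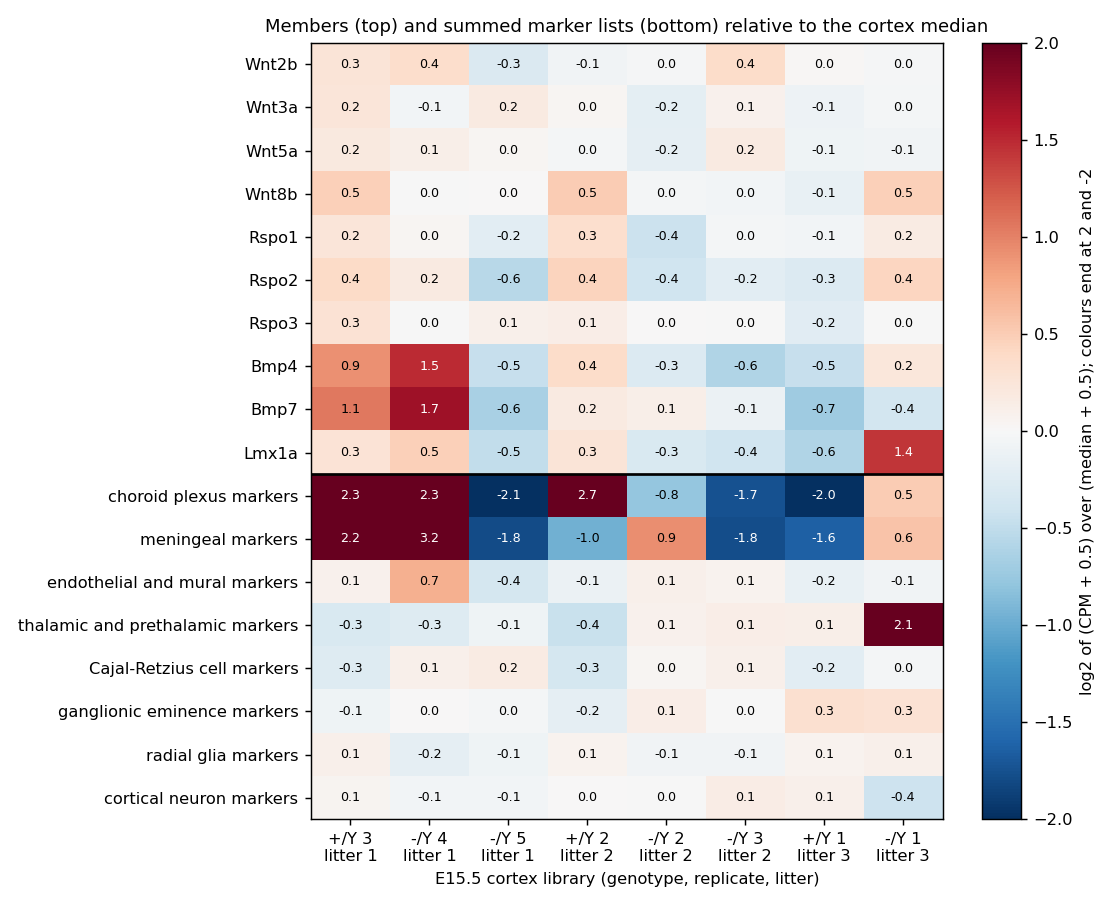
Each of the 10 genes (upper rows, CPM) and 8 marker lists (lower rows, summed CPM) in the 8 cortices, as log2 of the value plus 0.5 over the row's median plus 0.5, with columns ordered by litter. Bmp4, Bmp7, choroid plexus and meningeal rows are high in the first 2 columns, choroid plexus also in the fourth, and Lmx1a and thalamic rows in the last.

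*Lmx1a* (Entrez Gene 110648, chr1:167688230-167848741) was raised in 4 cortices. Its highest level was 8.53 CPM, in *Phf6-/Y* replicate 1. Control replicates 2 and 3 and *Phf6-/Y* replicate 4 followed with 3.49, 3.55 and 4.15 CPM, and the remaining 4 cortices lay between 1.72 and 2.22 CPM. The highest is the cortex with the thalamic markers, in which *Tcf7l2*, a transcription factor of the Wnt pathway that is abundant in thalamus, was at 268 CPM against 7.49 to 18.1 CPM in the other 7. *Lmx1a* is also made in diencephalic roof and in other dorsal and ventral midline tissue, and the part of such tissue in its level was not tested. The other 3 cortices with raised *Lmx1a* were the 3 with the highest choroid plexus sums. Within litter 3 the log2 ratio of *Lmx1a* between genotypes was 2.31, against -0.23 and -0.71 in litters 1 and 2.

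The same 4 cortices held the most *Rspo2*. Control replicates 2 and 3 and *Phf6-/Y* replicate 1 had 8.16, 7.82 and 8.15 CPM of *Rspo2*, *Phf6-/Y* replicate 4 had 6.77 CPM and the other 4 cortices had 3.85 to 5.01 CPM. *Wnt8b* was highest in the first 3 of those cortices, at 9.03, 8.83 and 8.74 CPM, and at 5.54 to 6.19 CPM in the other 5. *Lmx1a* and *Rspo2* were correlated with r = 0.82 (rho = 0.71, 0.90 without the farthest 2), *Lmx1a* and *Wnt8b* with r = 0.71 (rho = 0.60, then 0.91) and *Lmx1a* and *Bmp4* with r = 0.59 (rho = 0.79, then 0.95). The pair *Rspo1* and *Rspo2* gave r = 0.89 (rho = 0.95, 0.96 without the farthest 2) and *Wnt8b* and *Rspo2* gave r = 0.85 (rho = 0.67, then 0.74). *Rspo2* followed the choroid plexus sum with r = 0.87 (rho = 0.83, then 0.86). The farthest 2 were taken by *Wnt8b* in pairs that include it and by the first gene named in the other pairs. For the choroid plexus sum they were taken by that sum, so they are not the same 2 cortices throughout. Of the 45 pairs of members, 41 had a positive r, with a median of 0.40, and the same figures for pairs of other genes were not computed.

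*Wnt3a*, *Wnt5a*, *Rspo3* and *Wnt2b* varied little over the cortices, with ratios of 1.45, 1.3, 1.43 and 1.66. The 8 other genes most correlated with the mean of the scaled members over the 8 cortices were *Abcg5*, *Tifa*, *R3hcc1l*, *Clpb*, *Slc16a9*, *Krt8*, *Metrnl* and *Prr32*, with r from 0.90 to 0.94. The single most correlated gene was *Slc2a12* for *Bmp4* (r = 0.98), *Pltp* for *Bmp7* (0.99), *Acss3* for *Lmx1a* (0.97), *Krt8* for *Rspo2* (0.97), *Cda* for *Wnt8b* (0.95) and *Brms1* for *Rspo1* (0.96). For *Wnt3a*, *Wnt5a*, *Rspo3* and *Wnt2b* it was *Saysd1*, *Arhgap35*, *Snap29* and *BC029722*, with r of 0.95, 0.94, 0.96 and 0.94. These were picked as the highest among all tested genes over 8 libraries.

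Litters were compared as the labels give them, with genotype as a term. None of the 10 members differed between the 3 litters of the cortex at an FDR below 0.05, against 1.7% of 14750 genes (edgeR). An unadjusted p below 0.05 was reached by 2280 of all genes and 0 members, and DESeq2 and limma-trend called 0 members. *Bmp7* had litter means of 12.3, 6.26 and 3.99 CPM in litters 1 to 3 and an FDR of 0.507, which became 0.000221 without *Phf6-/Y* replicate 5, the low litter 1 cortex. Litter 1 is then control replicate 3 and *Phf6-/Y* replicate 4, the pair with the highest meningeal sums, and cannot be told from that pair. All genes called were 586 in place of 251 there. *Lmx1a*, with litter means of 3.19, 2.59 and 5.12 CPM, had an FDR of 0.716. It was called without control replicate 1, the low litter 3 cortex. In that fit litter 3 is 1 library, *Phf6-/Y* replicate 1 at 8.53 CPM with the high thalamic markers. The fit therefore cannot tell the litter from that cortex. In neurons 0 of 8 tested members differed between the 4 litters, against 5.01% of 13909 genes, although *Wnt5a*, *Rspo1* and *Rspo3* had unadjusted p-values of 0.0111, 0.0219 and 0.00944 and 2885 of all genes were below 0.05 (DESeq2 and limma-trend also called 0 members, DESeq2 giving no adjusted p for *Rspo1*). *Rspo3* became called without control replicate 3, *Phf6lox/Y;Nes-cre* replicate 2 or replicate 4, and *Wnt5a* without *Phf6lox/Y;Nes-cre* replicate 2. Each of these fits leaves litter 4 or litter 6 as 1 library, and litter 7 is 1 library throughout. They therefore cannot tell these litters from single cultures, and in each of them more of all genes were called as well.

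The last question was which of these signals were still present in the plated neurons. Control neurons differed from control cortex in 8 of the 9 members tested, 2 of them higher and 6 lower, where 24.7% of 14320 tested genes were called higher and 26.4% lower (edgeR). Tissue preparation, embryonic day, plating, the *Nes-cre* transgene and litter all changed together in this comparison and cannot be told apart. With library totals in place of TMM the median log2 fold change of all genes moved from -0.03 to -0.17 and the share of calls that were higher from 48.4% to 33.0%. Under both scalings the 6 lower members and *Rspo3* kept their sign and their call, whereas the call of *Rspo2* was lost and that of *Wnt5a* gained.

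The largest differences, which were within their errors of each other, were those of *Wnt3a*, *Wnt8b* and *Rspo1*. *Wnt3a* fell from 1.85, 2.1 and 2.5 CPM in control cortices to 0.147, 0.185 and 0.263 CPM in control neurons, which were 4, 4 and 6 reads. For *Wnt3a* the log2 fold change was -3.42 (SE 0.48, FDR = 6.42e-05, edgeR). *Wnt8b* fell from 5.54, 9.03 and 8.83 CPM to 1.25, 0.277 and 0.658 CPM, a log2 fold change of -3.38 (SE 0.42, FDR = 3.43e-05), and *Rspo1* (Entrez Gene 192199, chr4:124986401-125009102), an R-spondin of dorsal midline tissue, fell from 4.44, 5.98 and 5.6 CPM to 0.88, 0.185 and 0.658 CPM, a log2 fold change of -3.18 (SE 0.42, FDR = 3.74e-05). Fitted levels were thus 10.7, 10.4 and 9.05 times lower. For all 3 genes each of the 7 neuron cultures, of either genotype, lay below each of the 8 cortices. The share of all tested genes that separate in this way was not counted, here or for the members below. Without neuron control replicate 1 the log2 fold changes were -3.23, -4.03 and -3.64, so that the order of the 3 genes was not settled.

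The 250 bases before the start of the Wnt ligands among these, *Wnt3a* and *Wnt8b*, are shown because both are hem ligands with differences among the largest of the 10. The sequences are those of RefSeq on GRCm38.p6, read 5′ to 3′ on the strand of the gene: chr11:59290752-59291001 on the minus strand for *Wnt3a* and chr19:44493222-44493471 on the plus strand for *Wnt8b*. Capitals mark matches on either strand to CTTTGT or CTTTGA, the core bound by the TCF/LEF factors of the Wnt pathway, to TAATTA, a homeodomain core, and to GGCGCC, a GC-rich core bound by SMAD proteins of the BMP pathway. These motifs do not overlap here.
Wnt3a: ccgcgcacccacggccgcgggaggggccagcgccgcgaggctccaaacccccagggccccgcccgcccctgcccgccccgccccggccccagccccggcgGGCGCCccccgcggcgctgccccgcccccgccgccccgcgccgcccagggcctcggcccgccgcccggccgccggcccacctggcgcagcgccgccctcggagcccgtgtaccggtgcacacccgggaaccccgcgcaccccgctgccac
Wnt8b: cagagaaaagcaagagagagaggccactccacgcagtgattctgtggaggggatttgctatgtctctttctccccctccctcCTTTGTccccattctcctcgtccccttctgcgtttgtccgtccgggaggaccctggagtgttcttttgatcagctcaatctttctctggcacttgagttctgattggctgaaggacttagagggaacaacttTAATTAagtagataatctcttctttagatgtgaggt
The *Wnt8b* sequence held 1 match to the TCF/LEF core and 1 to TAATTA, which 27.6% and 4.84% of 32851 upstream sequences of this length held. *Wnt3a* held 1 match to GGCGCC, present in 9.59% of all, and *Wnt2b* held 2, while the upstream sequence of *Bmp4* held none of these motifs. GC content was 87.6% for *Wnt3a* and 48.4% for *Wnt8b*, against a median of 52.4%. Matches of 6 letters are descriptions of these windows and were not tied to the counts. Sequences were matched for 6 of the 10 members. Those of *Rspo1* and *Lmx1a* lie partly or wholly inside the annotated gene (29 and 250 bases) and were not used, nor were any of *Wnt5a*, *Bmp7*, *Rspo2* and *Rspo3*.

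*Bmp7* fell from 3.44, 6.85 and 12.9 CPM in control cortices to 2.09, 1.71 and 1.84 CPM in control neurons, with a log2 fold change of -2.03 (SE 0.42, FDR = 0.00236, edgeR). The neurons lay together, under the lowest cortex. Without control cortex 3, the one with the meningeal markers, the log2 fold change was -1.45 and the call was kept. *Lmx1a* fell from 1.72, 3.49 and 3.55 to 1.39, 0.461 and 0.877 CPM (-1.65, SE 0.45, FDR = 0.00772) and *Wnt2b* from 4.66, 4.36 and 5.6 to 2.6, 1.75 and 2.37 CPM (-1.12, SE 0.28, FDR = 0.00405), without overlap between the control groups. Over both genotypes the neurons stayed below the cortices for *Wnt2b* and *Bmp7* but not for *Lmx1a*, which was at 2.06 CPM in *Phf6lox/Y;Nes-cre* replicate 2 and at 1.72 CPM in the lowest cortex.

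*Rspo3* rose in the neurons, from 22.2, 28.4 and 31.7 CPM in control cortices to 64.4, 79.9 and 70.5 CPM, a log2 fold change of 1.38 (SE 0.13, FDR = 4.19e-06, edgeR). Every neuron culture of either genotype was above every cortex, the lowest being at 51.5 CPM. *Rspo2* rose by less, from 4.79, 8.16 and 7.82 to 10.2, 9.83 and 11.4 CPM (0.59, SE 0.22, FDR = 0.033), again with every culture above every cortex. The share of all tested genes that separate in this way was not counted, and 24.7% of them were called higher. The call of *Rspo2* was lost with library totals (0.45, FDR = 0.0916), without cortex control replicate 1 (0.38, FDR = 0.146) and without neuron control replicate 3 (0.55, FDR = 0.0857). *Rspo1*, *Rspo2* and *Rspo3* therefore did not move together: *Rspo1* fell while *Rspo3* rose, and *Rspo2* was higher in every fit but not called in the 3 just named.

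*Wnt5a* was at 18.7, 19.4 and 22.8 CPM in control cortices and 19.8, 16.2 and 13.2 CPM in control neurons, with overlap and a log2 fold change of -0.31 (SE 0.16, 95% interval -0.65 to 0.04, FDR = 0.127, edgeR). It was called with library totals (-0.44, FDR = 0.0324) and without neuron control replicate 1 (-0.46, FDR = 0.0248). *Bmp4* did not pass the filter, with 8, 21 and 36 reads in control cortices and 10, 7 and 3 in control neurons. Without the filter its log2 fold change was -1.58 (FDR = 0.0944, edgeR), and without cortex control replicate 1, the lowest of the 3, it was -2.03 (FDR = 0.0272).

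**Figure D4:**
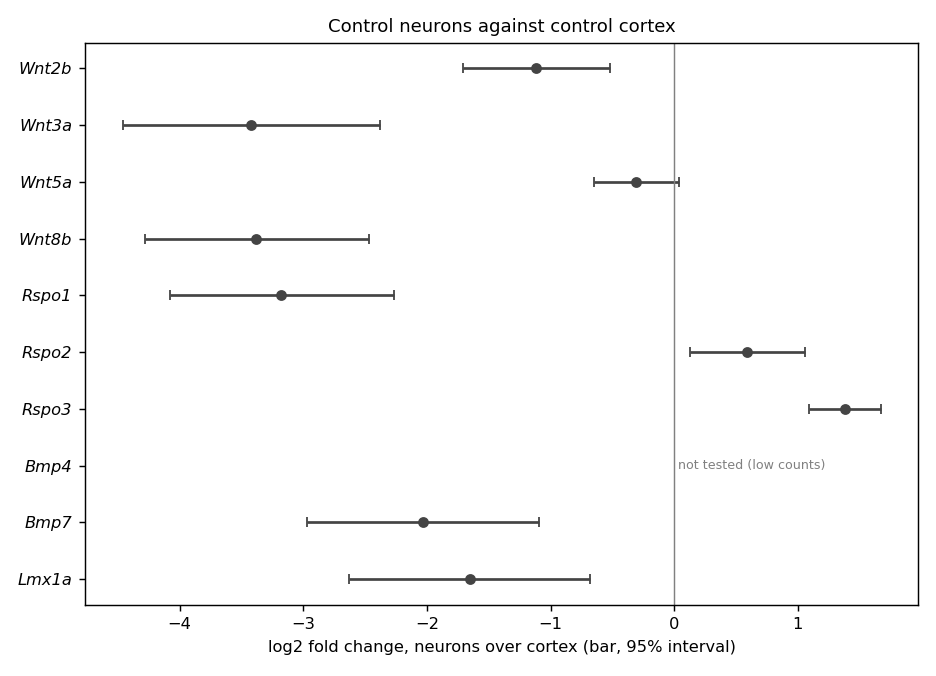
Fitted log2 fold change of each gene in control neurons against control cortex (x axis, points) with its 95% interval (bars). To the left of 0 lie 6 genes with intervals that leave it out, from Wnt3a at -3.42 to Wnt2b at -1.12, and Rspo2 and Rspo3 lie to the right, at 0.59 and 1.38.

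The rest of the Wnt pathway was lower in the neurons for most genes called, where 24.7% of all tested genes were called higher and 26.4% lower. Of 10 Wnt targets and effectors 9 fell, among them *Nkd1* (-1.88), *Axin2* (-1.21) and *Dact1* (-1.03), each an inhibitor or feedback regulator of the pathway, and the median of the list was -1.77 against -0.03 over all genes. Among 7 other Wnt ligands 5 fell, with *Wnt7a* at -1.10, *Wnt7b* at -0.71 and *Wnt4* at -3.68, and the median was -1.10. Among 20 Wnt secretion and receptor genes 11 fell and 3 rose (13 and 1 with library totals), and the 3 with the smallest p were the receptors *Fzd6* (-3.85), *Fzd2* (-1.59) and *Fzd8* (-1.79). Among 8 secreted inhibitors 4 fell and 1 rose, with *Sfrp2* at -2.59, *Sfrp1* at -0.85 and *Dkk3* at 1.30.

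In the BMP pathway, 4 of 5 other ligands fell, with *Bmp3* at -2.36, *Bmp6* at -2.28 and *Bmp5* at -2.49. Of the 6 BMP receptors 5 rose and 1 fell, with *Acvr1* at 1.05, *Acvr2a* at 0.71 and *Acvr2b* at -1.22, and with library totals 3 rose and 1 fell. The 8 BMP inhibitors divided, 2 rising and 3 falling, near the shares of all genes (24.7% higher and 26.4% lower). *Fst* was at 2.89, *Grem1* at 2.49 and *Nog* at -1.34, and the median of the inhibitors of 0.05 became -0.09 with library totals. Among 8 BMP targets and effectors 3 fell and 2 rose (4 and 1 with library totals), likewise near those shares. *Id2*, an inhibitor of basic helix-loop-helix factors, was at 1.86, *Id4* at -2.11 and *Msx1*, a roof and choroid plexus factor, at -2.91. Of 10 hem and medial pallium factors 7 fell, with *Dmrt3* at -1.76 and *Lhx5* at -2.41, and 2 rose, with *Zbtb20*, a hippocampal factor, at 1.42 (1 rose with library totals).

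Markers of other cells fell alongside the members in the neurons. By calls, where 26.4% of all genes were lower, all 7 radial glia and all 7 ganglionic eminence genes tested fell. So did all 6 endothelial and mural genes, 6 of 7 Cajal-Retzius genes, all 5 thalamic genes, 3 of 7 meningeal and 2 of 7 choroid plexus genes. The meningeal and choroid plexus lists had 0 positive log2 fold changes and medians of -4.90 and -2.85, although few of their genes were called. Of 5 cortical neuron genes 3 rose and 2 fell (2 rose with library totals). Summed choroid plexus markers went from 20.2 to 517 CPM in control cortices to 6.82 to 9.27 CPM in control neurons, meningeal markers from 20 to 295 to 3.12 to 6.05 CPM, and radial glia markers from 1440 to 1470 to 400 to 554 CPM. The endothelial marker *Cldn5* had 0 reads in all 3 control cultures. The part of these cells in the fall of the 6 members, or in the rise of *Rspo2* and *Rspo3*, was not tested.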

How the data were processed

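RNA-seq counts of 15 libraries (8 E15.5 cortices, 7 E16.5 cortical neuron cultures; polyadenylated RNA, stranded kit) were analysed. The deposited counts are whole reads per Entrez gene that the authors obtained with featureCounts on the mm10 build (both named in the submitters' processing notes), without normalisation. The strand setting of the counting was not given in the sources used here, and *Wnt2b*, *Bmp4*, *Bmp7* and *Rspo1* overlap other gene models (*Wnt2b* overlaps *St7l*), so that reads in those overlaps are uncertain. All 15 per-sample files equalled their column of the series table. Rows without a gene identifier (1029 of 27179, 0.349 to 0.605% of counts) were left out. Of 26150 identifiers 875 were not matched to RefSeq (GRCm38.p6), and pseudogenes (835), ribosomal RNA (35) and predicted genes (1788) were removed with genes off the assembled chromosomes (these classes overlap), leaving 23132.

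Comparisons used edgeR 4.0.16 (R 4.3.3): filterByExpr by group, TMM, robust quasi-likelihood F tests, and an FDR (Benjamini-Hochberg, over every tested gene) threshold of 0.05. Litter was a fixed term within tissue, as in the study's methods, because litter mates share a dam. Intervals are 95% intervals from the fitted standard error. DESeq2 1.42.0, limma-trend (limma 3.58.1), other scalings, no filter and each library or litter left out were alternatives. Scripts were tested on simulated data. Correlations used log2 of CPM plus 0.5. The precision of a gene follows its reads, from 0 to 1756 per library for the members. The labels give litter and replicate number but no animal identifier, so p-values measure the spread between these samples.

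The members, lists and tests were chosen with earlier results of these data known. Genes named from a list are those with an FDR below 0.05, at most the 3 with the smallest p, besides the 10 members, *Phf6* and the most correlated genes. *Tcf7l2*, *Ttr* and *Cldn5*, where given by library, were singled out after their values were seen. A few items, among them 1 cortical neuron marker left out of its list, are not reported here.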

Additional observations from a re-analysis of the deposited data

Results flagged for a closer look

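In the 5 *Phf6-/Y* cortices and the 4 *Phf6lox/Y;Nes-cre* cultures, the gap between an extreme library and its nearest neighbour was compared with the range of the group for the 10 members and 8 summed marker lists. Of 36 such groups of values 8 exceeded Dixon's 95% limit, where chance flags about 1 in 20. *Phf6-/Y* replicate 4 stood apart in *Bmp4* (2.42 CPM, next 0.714), *Bmp7* (20.4, next 6.49), choroid plexus markers (392, next 116) and meningeal markers (567, next 121). *Phf6-/Y* replicate 1 stood apart in *Wnt8b* (8.74 CPM, next 6.19) and in thalamic and prethalamic markers (159, next 39.4). *Phf6-/Y* replicate 5 stood apart in *Rspo3* (28.0 CPM, next 26.1), a small difference that lies inside the range of the controls. *Phf6lox/Y;Nes-cre* replicate 3 stood apart in choroid plexus markers (32.6 CPM, next 14.3). The 10 members and the lists share libraries, so these are not independent of each other.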

How the results depend on the processing

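No called member changed sign. Of the members' values under the alternatives, 673 kept direction and side of the threshold, 10 gained and 3 lost a call, 41 changed sign without being called on either side, and a further 24 belong to *Bmp4* and *Wnt3a* where the chosen filter left them untested. The number of members called stayed at 0 in both genotype comparisons and the interaction under every alternative run. In control neurons against control cortex it was 7 to 9 with 1 library left out (7 without neuron control replicate 3, 9 without neuron control replicate 1), and the cause was not tested. In the litter tests it was 0 to 1 in cortex (1 without control replicate 1 or *Phf6-/Y* replicate 5), and 0 to 2 in neurons (2 without *Phf6lox/Y;Nes-cre* replicate 2, 1 without control replicate 3 or *Phf6lox/Y;Nes-cre* replicate 4). Without the filter 2 members, *Wnt5a* and *Rspo3*, differed between neuron litters (FDR = 0.0177 and 0.0401, edgeR).

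Sign changes, on the log2 scale, were as follows. In the cortex genotype comparison *Wnt2b* became -0.01 with limma-trend and -0.13 without litter 2, *Bmp7* 0.08 without the litter term, 0.03 without litter 1 and 0.10 without litter 2, *Wnt5a* 0.03 and *Rspo3* 0.01 without litter 1, *Bmp4* 0.46 without litter 2 and *Lmx1a* -0.48 without litter 3. Without control 3 and *Phf6-/Y* 1 and 4, *Wnt5a* became 0.04 and *Lmx1a* -0.72. With 1 library left out the ranges were -0.99 to 0.46 for *Bmp4*, -0.51 to 0.24 for *Bmp7*, -0.47 to 0.80 for *Lmx1a*, -0.13 to 0.13 for *Wnt2b* and -0.09 to 0.03 for *Wnt5a*. In the neuron genotype comparison *Bmp7* and *Rspo1* became 0.07 and 0.25 without the litter term and 0.29 and 0.19 with the replicate block, *Wnt5a* -0.01 and *Rspo1* 0.07 without litter 5, and *Bmp7* 0.23 without litter 6, the ranges with 1 library left out being -0.32 to 0.23 for *Bmp7*, -0.72 to 0.08 for *Rspo1* and -0.01 to 0.17 for *Wnt5a*. In the interaction *Bmp7* and *Rspo1* became 0.08 and -0.25 with limma-trend, and *Bmp7* and *Rspo3* became 0.07 and 0.02 without *Phf6-/Y* replicate 1. The causes were not tested.

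Counts over all genes moved more. For cortex genotype, 57 became 114 without the filter, 195 with DESeq2, 1 without the litter term, 2 without litter 2, 10 without litter 3 and 460 without control 3 and *Phf6-/Y* 1 and 4, an alternative chosen after seeing the data, and 7 to 81 with 1 library left out (7 to 17 without control 1, 2 or 3 or *Phf6-/Y* 1 or 2). For neuron genotype, 38 became 73 with library totals, 297 without the filter, 63 with DESeq2, 1 without the litter term, 108, 12 and 419 without litters 4, 5 and 6, and 16 to 494 with 1 library left out (within 1.5 times only without *Phf6lox/Y;Nes-cre* 1). For litters, 251 in cortex became 482 without the filter and 834 with DESeq2 (16 to 586 leaving out 1 library, within 1.5 times only without control 2 or *Phf6-/Y* 4), and 697 in neurons became 1961 without the filter (488 to 2398, within 1.5 times only without control 2 or *Phf6lox/Y;Nes-cre* 1 or 3). The interaction gave 2 genes, 5 without the filter, 12 with DESeq2 and 1 without *Phf6-/Y* replicate 1, also chosen after seeing the data. Between tissues, 7318 genes ranged from 6310 to 7121 with 1 library left out, and library totals gave 2459 higher and 5003 lower calls in place of 3541 and 3777. The causes were not tested.

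Replicate numbers do not mark litters throughout: in cortex, numbers 1 and 2 each join litter mates, whereas number 3 and all numbers in neurons do not. Same-numbered controls and Phf6-deleted samples deviated from their group means with r = 0.30, 0.07 and -0.23 in cortex and 0.29, -0.22 and 0.17 in neurons. Litter mates of opposite genotype did so with r = 0.30, 0.07, 0.12, 0.49 and -0.13 in cortex and 0.34, 0.16 and 0.35 in neurons. The numbers were not taken as pairs. With the number as a replicate block in place of litter, 75 genes were called in cortex and 5 in neurons, and 0 members in either. Depth limits *Bmp4* and *Wnt3a* in neurons most, at 2 to 16 reads per culture.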

Other observations

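Among the choroid plexus markers, whose sums did not overlap between the neuron genotypes, *Ttr* was the 1 called gene of the 5 tested (log2 fold change 2.84, SE 0.27, FDR = 0.000188, edgeR). *Ttr* was at 0.403, 2.12 and 1.27 CPM in control and at 6.01, 2.43, 22.3 and 6.25 CPM in *Phf6lox/Y;Nes-cre* cultures. Among the thalamic and prethalamic markers *Lhx9*, a LIM-homeodomain factor also present in medial pallium, was the 1 called gene of the 2 tested (0.82, SE 0.14, FDR = 0.0173). In cortex neither list was called in any gene, and the choroid plexus sums of the genotypes overlapped from 20.2 to 392 CPM. Whether these genes differ between tissues in their genotype effect was covered by the interaction, in which 0 of 11 choroid plexus and 0 of 5 thalamic genes were called.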
